A study of Mus musculus with 6 samples.

Results

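The genes described here are 34 genes of smooth muscle contraction, the work of the myometrium, chosen by name: contractile filaments, the proteins that regulate them, the kinase and phosphatase of myosin, their transcription factors, membrane channels and a receptor, calcium-store proteins, and cytoskeletal scaffolds. All 34 were found by symbol among the 37060 genes of the deposited table. The series profiled uterus on gestation day 5, around implantation, by RNA sequencing in 3 SRC-2d/d mutant mice and 3 SRC-2f/f control mice, each library from a different mouse. SRC-2, a coactivator of steroid hormone receptors, is encoded by Ncoa2, and its gene signature in implantation is what the comparison addresses. The controls carry the floxed allele, and the mutants carry the deleted form of it. The driver of the deletion, the cells in which it acts and the age and strain of the mice are not stated by the labels. Levels are normalized counts, that is reads divided by 1 size factor per library, not by gene length.

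Smooth muscle shortens when myosin pulls on actin. Calcium entering through voltage-gated channels or released from the sarcoplasmic reticulum binds calmodulin, which activates myosin light chain kinase, and myosin phosphatase reverses the step. In uterus, oxytocin and prostaglandins raise calcium through receptors coupled to Gq, large-conductance potassium channels oppose excitation, and progesterone keeps the muscle quiet until birth. The smooth muscle genes themselves are switched on by serum response factor with its cofactor myocardin, at DNA elements called CArG boxes. The uterus also holds epithelium, stroma and vessels. Some of the 34 genes are active there too, so that a level is a sum over all these cells.

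The label held in the data in so far as the defining muscle genes Myh11 and Acta2 were abundant in every library. Tagln, also a smooth muscle gene, had only 610 to 981 normalized counts, which are uncertain for reasons given further on. Myh11, the smooth muscle myosin heavy chain, had between 86264 and 139834 normalized counts, and Acta2, smooth muscle α-actin, between 126725 and 204282. Of the 13 skeletal muscle markers measured, 7 (Ckm, Myh1, Myh2, Myl1, Tnnc2, Cacna1s and Pvalb) had a mean under 50 and 6 had more, and the 13 summed to 8173 to 15739 normalized counts in mutants and 17815 to 18294 in controls. Ncoa2 itself had 7620, 6667 and 7409 normalized counts in SRC-2d/d mice 1 to 3, against 13207, 13090 and 14495 in SRC-2f/f mice 1 to 3 (log2 difference -0.91, SE 0.20, adjusted p = 0.00953, not called without SRC-2f/f 2 or 3). The reads counted in genes came to 129905950 in the smallest library and 195782326 in the largest. The labels name no sequencing batch.

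Of the 34 contraction genes 3 passed the test between the genotypes. Oxtr, the oxytocin receptor gene, rose in mutants to 3.04 times the control mean. Des and Synm, which encode the intermediate filament proteins desmin and synemin, fell to 43.6% and 50.5% of it. The other 31 genes did not pass the test. The 1 gene called higher makes 2.94% of the 34, against 5.34% called higher among the 36154 genes tested, and the 2 called lower make 5.88%, against 4.08%. Neither share stands far from its background. Calls are by limma with a Benjamini-Hochberg adjusted p under 0.05 over all tested genes. Among the 17979 of them whose mean reached 100, 8.33% were called higher and 6.79% lower.

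The count of lower genes moved with the scaling and with single mice, as did the background. It was 4 with TMM scaling (1 higher; background 5.21% higher and 4.11% lower), 5 with quantile normalization (1 higher; 5.26% and 4.4%) and 6 with libraries scaled to equal totals (1 higher; 4.75% and 4.44%). It was 0 without SRC-2d/d 1 (3.9% higher and 2.29% lower), 5 without SRC-2d/d 2 (7.24% and 7.84%) and 1 without SRC-2d/d 3 (3.8% and 2.13%). Without SRC-2f/f 1 it was 1 (4.11% and 2.55%), without SRC-2f/f 2 also 1 (3.06% and 1.26%), and without SRC-2f/f 3 it was 0 (2.83% and 0.879%). The higher genes were 2 without SRC-2d/d 3 and 1 without each other library. Variance settings mattered as well: eBayes without trend called 0 higher and 0 lower (1.89% and 0.871%), its robust form 1 and 4 (5.64% and 4.15%), array weights 2 and 5 (7.83% and 6.91%), and a block for the replicate number 1 and 4 (5.82% and 4.72%).

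Over all 34 genes, called or not, most differences pointed downwards. Of the 34 genes 26 had a log2 difference (mutant minus control) below 0, or 76.5%, compared with 50.4% of all tested genes, and the median was -0.33, against -0.01 over all tested genes. Without SRC-2d/d 2 the median of the 34 was -0.45. In 14 of the 34 genes all 3 mutants lay below all 3 controls, and in 2 (Oxtr and Itpr1) all 3 lay above. Over all tested genes 12.1% were separated downwards and 13.4% upwards, and over those whose mean reached 100, 16.1% and 18%. Genes of 1 tissue compartment vary together, so these counts describe the 6 libraries only. In bulk tissue, fewer muscle cells, less RNA per muscle cell and changed shares of the other cells of the uterus cannot be told apart.

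**Figure D1:**
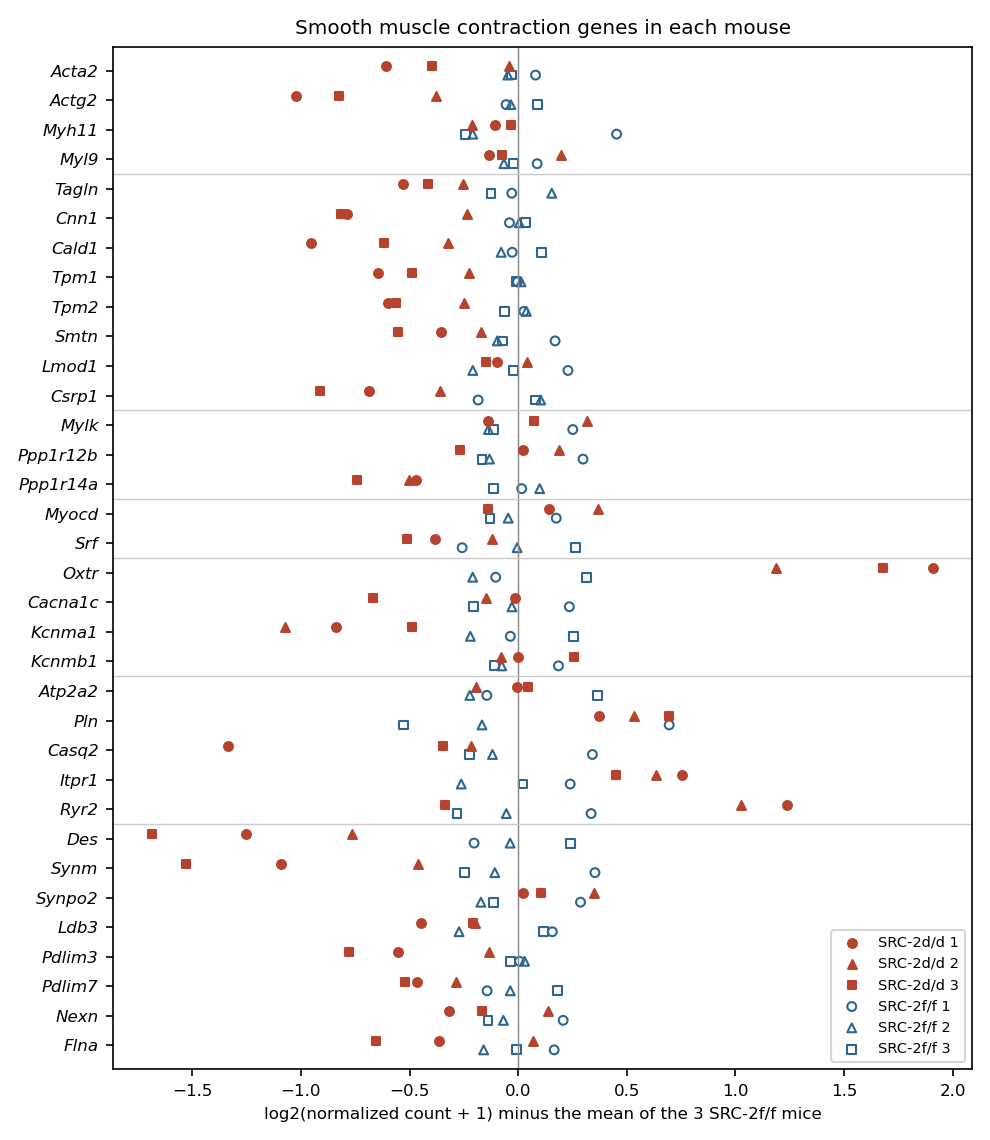
Each of the 34 contraction genes in each mouse, as log2(normalized count + 1) minus the mean of the 3 SRC-2f/f mice, with filled red symbols for SRC-2d/d and open blue symbols for SRC-2f/f mice; grey lines separate the functional groups. Oxtr stands to the right in all 3 mutants, Des and Synm to the left, and SRC-2d/d 2 is the rightmost mutant for 24 of the 34 genes.

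The 3 called genes have the following 250 bases before their annotated start, shown with those of Srf and Myl9 as 2 genes of the set that hold CArG boxes there. Sequences and positions are from RefSeq on GRCm38.p6, 5′ to 3′ on the gene's strand. Capitals mark matches, on either strand, to the CArG box, to AGGTCA, a half-site of estrogen receptors, or to AGAACA, a half-site of progesterone, androgen and glucocorticoid receptors. The CArG box was searched only as CCWWWWWWGG, with W for A or T. Boxes that hold a C or G inside were not counted, so a gene without a match may still have one.
Oxtr, chr6:112489826-112490075, minus strand: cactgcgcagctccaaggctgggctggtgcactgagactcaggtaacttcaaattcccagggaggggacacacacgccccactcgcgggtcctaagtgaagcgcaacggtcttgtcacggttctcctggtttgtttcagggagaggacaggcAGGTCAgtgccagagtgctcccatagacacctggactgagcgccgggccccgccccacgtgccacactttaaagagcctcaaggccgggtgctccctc
Des, chr1:75360042-75360291, plus strand: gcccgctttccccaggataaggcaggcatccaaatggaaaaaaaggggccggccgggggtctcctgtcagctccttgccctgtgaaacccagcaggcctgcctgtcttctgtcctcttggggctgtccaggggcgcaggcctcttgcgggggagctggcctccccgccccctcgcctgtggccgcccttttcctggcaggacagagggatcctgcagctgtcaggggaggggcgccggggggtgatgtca
Synm, chr7:67759743-67759992, minus strand: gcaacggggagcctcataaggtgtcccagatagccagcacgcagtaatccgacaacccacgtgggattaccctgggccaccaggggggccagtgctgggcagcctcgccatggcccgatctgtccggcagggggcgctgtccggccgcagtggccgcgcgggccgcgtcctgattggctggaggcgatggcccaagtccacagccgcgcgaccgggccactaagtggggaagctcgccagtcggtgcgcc
Srf, chr17:46556163-46556412, minus strand: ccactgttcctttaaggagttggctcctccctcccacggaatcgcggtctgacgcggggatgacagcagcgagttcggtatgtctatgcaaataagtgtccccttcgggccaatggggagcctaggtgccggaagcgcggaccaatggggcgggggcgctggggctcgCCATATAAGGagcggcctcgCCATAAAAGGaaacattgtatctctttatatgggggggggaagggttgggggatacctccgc
Myl9, chr2:156775214-156775463, plus strand: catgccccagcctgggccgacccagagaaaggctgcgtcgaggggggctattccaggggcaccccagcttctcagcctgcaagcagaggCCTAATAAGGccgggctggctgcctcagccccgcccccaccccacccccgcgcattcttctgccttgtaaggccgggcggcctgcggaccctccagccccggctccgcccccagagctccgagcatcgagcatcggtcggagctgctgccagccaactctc

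The Oxtr window holds 1 AGGTCA, from 98 to 93 bases before the start. The windows of Des and Synm hold none of the 3 motifs. Srf holds 2 CArG boxes and Myl9 1, and neither gene passed the test. Windows were at hand for 27 of the 34 genes (33 windows), and for none of Actg2, Myocd, Myh11, Itpr1, Nexn, Tagln and Atp2a2. A CArG box lay in 4 of the 33 windows (12.1%), those of 3 of the 27 genes (Ldb3, Myl9 and Srf), against 1.47% of 32851 windows over the genome. A gene can have more than 1 window, and overlapping windows can count 1 site repeatedly. Ldb3 has a box from 35 to 26 and from 109 to 100 bases before its starts. AGGTCA lay in 2 of the 33 windows (6.06%; Oxtr and Ryr2), against 14%, and AGAACA in 7 (21.2%; 6 genes), against 16.1%. A match is a string of letters in a short window, and enhancers farther off were not searched.

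Oxtr encodes the Gq-coupled receptor through which oxytocin contracts the uterus. It is a gene of myometrium and also of uterine epithelium. Its normalized counts were 4233, 2566 and 3614 in SRC-2d/d mice 1 to 3, against 1048, 974 and 1399 in SRC-2f/f mice 1 to 3, so that the lowest mutant stood well above the highest control. The means were 3471 ± 842 in mutants and 1141 ± 227 in controls (SD, n = 3 each). The log2 difference was 1.59 (SE 0.26, 95% interval 1.03 to 2.15, limma adjusted p = 0.00136). The call held without each library in turn and was lost in 1 of 20 alternatives, eBayes without trend (adjusted p = 0.0625). Epithelial markers rose in the same libraries: 10 of 10 were called higher, at summed normalized counts of 438942 to 824142 in mutants and 149706 to 165441 in controls, with no marker near 0. The part of the epithelium in the Oxtr difference was not tested. Within a library, the normalized count of Oxtr was 0.0446, 0.0291 and 0.0362 of that of Myh11 in mutants 1 to 3, against 0.00750, 0.0110 and 0.0162 in controls 1 to 3, a ratio that library scaling does not touch.

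The ligand gene Oxt had a mean under 50 over the 6 libraries. Cacna1c encodes the pore of the L-type calcium channel, the main route of calcium entry. It had 12617 ± 2822 normalized counts in mutants and 15144 ± 2363 in controls, with a log2 difference of -0.28 (95% interval -0.77 to 0.22). Kcnma1, the pore subunit of the large-conductance potassium channel that damps contraction, lay at 1969, 1677 and 2514 in mutants 1 to 3, against 3439, 3027 and 4211 in controls 1 to 3. Every mutant was thus below every control, at 57.7% of the control mean. Its log2 difference of -0.80 (SE 0.24) missed the threshold narrowly (limma adjusted p = 0.0518) and passed it in 7 of 20 alternatives, among them edgeR (0.0452) and DESeq2 (0.0380) on the recovered reads. Kcnmb1, the smooth muscle β subunit of the same channel, had 1720 ± 215 in mutants and 1650 ± 190 in controls, and overlapped fully (0.06, 95% interval -0.44 to 0.56). The Kcnma1 to Kcnmb1 ratio of normalized counts was 1.20, 1.08 and 1.28 in mutants 1 to 3, against 1.84, 1.94 and 2.77 in controls 1 to 3; that ratio was formed after the values were seen.

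Of the 8 genes of intermediate filaments and Z-disc-type scaffolds, 2 fell, 0 rose and 6 were not called. Des encodes desmin, which ties the contractile units together in muscle and in rodents also marks decidualizing stroma. It had 91082, 127989.8 and 67591 normalized counts in SRC-2d/d mice 1 to 3, against 188691, 211658 and 256502 in SRC-2f/f mice 1 to 3. The highest mutant stayed below the lowest control. The log2 difference was -1.23 (SE 0.27, 95% interval -1.82 to -0.65, limma adjusted p = 0.0107). The call was lost without SRC-2d/d 1 (adjusted p = 0.0501), SRC-2d/d 3 (0.0648) or SRC-2f/f 3 (0.0709).

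Synm encodes synemin, a filament protein that assembles with desmin and links it to the membrane. It had 7452, 11538 and 5519.9 normalized counts in mutants 1 to 3, against 20317, 14762 and 13409 in controls 1 to 3, again without overlap. The log2 difference was -1.03 (SE 0.27, 95% interval -1.61 to -0.44, limma adjusted p = 0.0296). Its call ended without any 1 library other than SRC-2d/d 2, at adjusted p-values of 0.0869 and 0.117 without SRC-2d/d 1 and 3 and of 0.134, 0.101 and 0.0902 without SRC-2f/f 1 to 3. Stromal markers moved in the same direction: 5 of 11 (Pdgfra, Hand2, Hoxa11, Vim and Thy1) were called lower and 0 higher, with summed normalized counts of 1171947 to 2384657 in mutants and 2199837 to 3035070.4 in controls. The part of the stroma in the differences of Des and Synm was not tested. The Des to Vim ratio of normalized counts, formed after the values were seen, was 0.937, 0.678 and 0.919 in mutants 1 to 3, against 0.927, 0.919 and 0.895 in controls 1 to 3. The Des to Myh11 ratio was 0.959, 1.45 and 0.676 in mutants and 1.35, 2.40 and 2.97 in controls.

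The remaining scaffold genes showed smaller differences. Pdlim3 and Pdlim7, PDZ-LIM adaptors of the actin cytoskeleton, stood at 72.5% and 74.3% of the control mean, with log2 differences of -0.49 and -0.43, and in both all mutants lay below all controls. Ldb3, a PDZ-LIM protein of Z-discs, had 777 ± 73.5 in mutants and 952 ± 149 in controls. Flna, the actin crosslinker filamin A, had 331421 ± 84988 in mutants and 405723 ± 45757 in controls. Nexn, the actin-binding nexilin, and Synpo2, synaptopodin 2, had log2 differences of -0.12 and 0.16, each with mutants and controls interleaved. Between the extremes, Des and Synpo2, the scaffold group thus spanned -1.23 to 0.16.

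**Figure D2:**
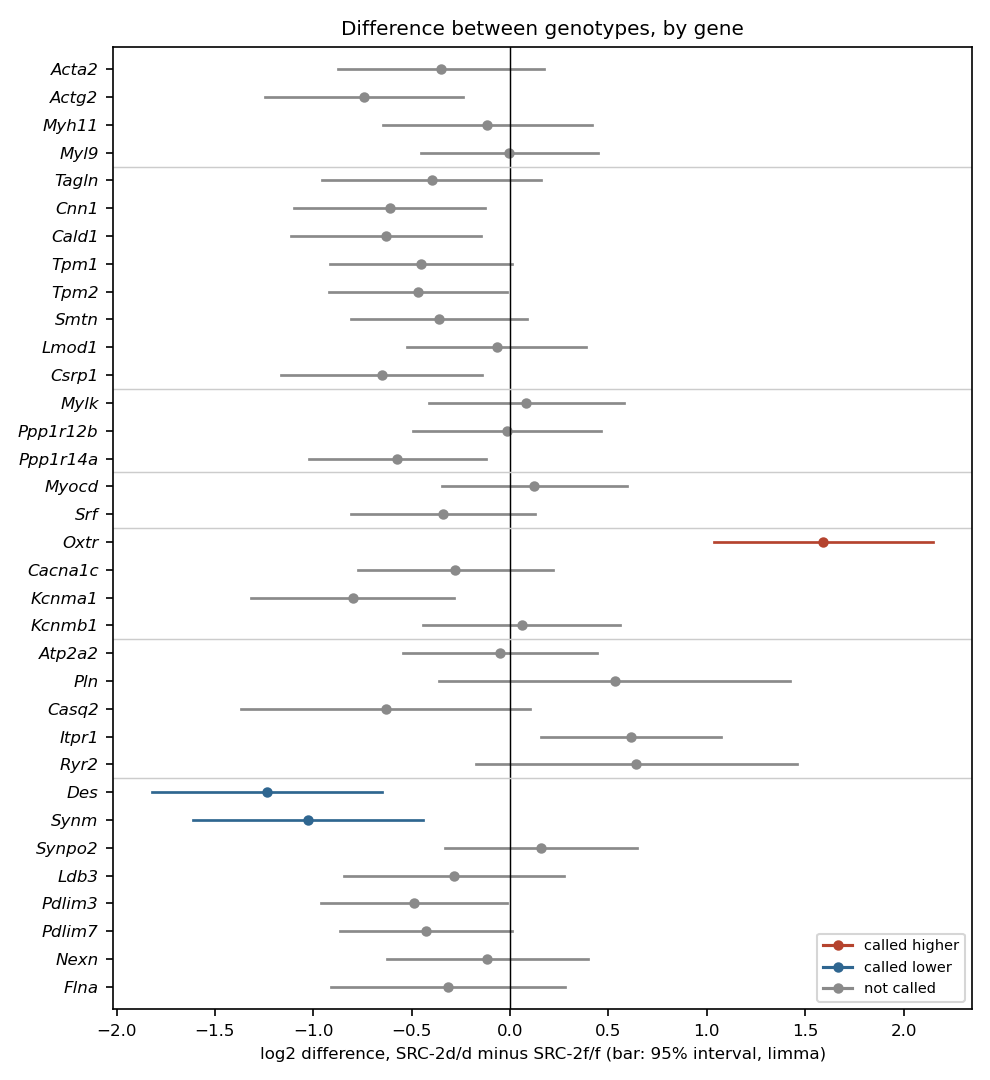
Log2 difference, SRC-2d/d minus SRC-2f/f, of each of the 34 genes with its own 95% interval from limma, not adjusted for the number of genes; red marks the gene called higher, blue the 2 called lower and grey the rest. Oxtr is at 1.59, Des at -1.23 and Synm at -1.03, while 21 of the 31 grey intervals lie wholly between -1 and 1.

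The filament proteins proper had 0 of 4 genes called. Acta2 had 126725, 187487 and 146773 normalized counts in mutants 1 to 3, against 204282, 187029 and 188956 in controls 1 to 3, so that mutant 2 sat among the controls. Its log2 difference was -0.35 (95% interval -0.87 to 0.17). Actg2, the γ-actin of visceral smooth muscle, had 49848, 77911 and 57225 in mutants 1 to 3, against 97566, 99068 and 107868 in controls 1 to 3. No mutant reached a control, and the mean was 60.8% of the control mean. The log2 difference of -0.74 (SE 0.23) gave a limma adjusted p of 0.0633, and the gene was called in 7 of 20 alternatives, with adjusted p-values of 0.0188 to 0.265 over all of them. The Actg2 to Acta2 ratio of normalized counts was 0.393, 0.416 and 0.390 in mutants and 0.478, 0.530 and 0.571 in controls, also formed after the values were seen. The actin genes have near-identical coding sequences, and how reads mapping to several of them were counted is not stated, so their split is uncertain.

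The thick filament genes were not called. Myh11 had 94952, 88239 and 99923 normalized counts in mutants 1 to 3, against 139834, 88368 and 86264 in controls 1 to 3, where control 1 alone stood high. The difference was -0.12 on the log2 scale, and 0.11 without that control. Myl9, the regulatory light chain on which contraction is switched, had 46289 ± 5875 in mutants and 46218 ± 2550 in controls. Its 95% interval of -0.45 to 0.45 bounds a change at less than 2-fold in either direction.

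Of the 8 thin filament regulators 0 were called, although all 8 log2 differences were below 0 (median -0.46). In 7 of them, among them Tagln, every mutant lay below every control. Over all tested genes 50.4% had a difference below 0 and 12.1% were separated downwards (16.1% where the mean reached 100). Cnn1, calponin, which restrains actomyosin, had 33234, 48624 and 32585 in mutants 1 to 3, against 55742, 57536 and 58698 in controls 1 to 3 (log2 difference -0.61, limma adjusted p = 0.112). Cald1, caldesmon, another actin-bound inhibitor, had 27987, 43342 and 35272 in mutants 1 to 3, against 53175, 51341 and 58317 in controls 1 to 3 (-0.63, limma adjusted p = 0.0996). In both genes SRC-2d/d 2 was the mutant nearest to the controls. Csrp1, a LIM protein of smooth muscle, stood at 64.2% of the control mean (-0.65, limma adjusted p = 0.109). The tropomyosin genes Tpm1 and Tpm2, whose proteins lie along actin, stood at 73.6% and 72.6%, with control values that were close together. Tpm1 had 45664 to 61157 in mutants and 71021 to 72170.4 in controls, and Tpm2 36594 to 46611 in mutants and 52956 to 56803 in controls. Smtn, smoothelin, had a log2 difference of -0.36, and Lmod1, the actin nucleator leiomodin 1, one of -0.07 with mutants and controls interleaved.

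Tagln, which encodes SM22, another actin-associated protein, needs a caution. It had 610.04, 739.6 and 660.7 normalized counts in mutants 1 to 3, against 863, 980.5 and 808 in controls 1 to 3 (log2 difference -0.40, not called). Per kilobase of exon (GENCODE M21) that is 337 in mutants and 445 in controls, while Cnn1 stood at 13943 in mutants and 20952 in controls. In that annotation 67.9% of the exonic bases of Tagln are shared with genes on the opposite strand, among them Pcsk7, and 64.7% of those of Pln with Cep85l and another gene. The strand setting of the counting is not stated, so the reads of these genes may not be fully told apart and both values are uncertain.

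**Figure D3:**
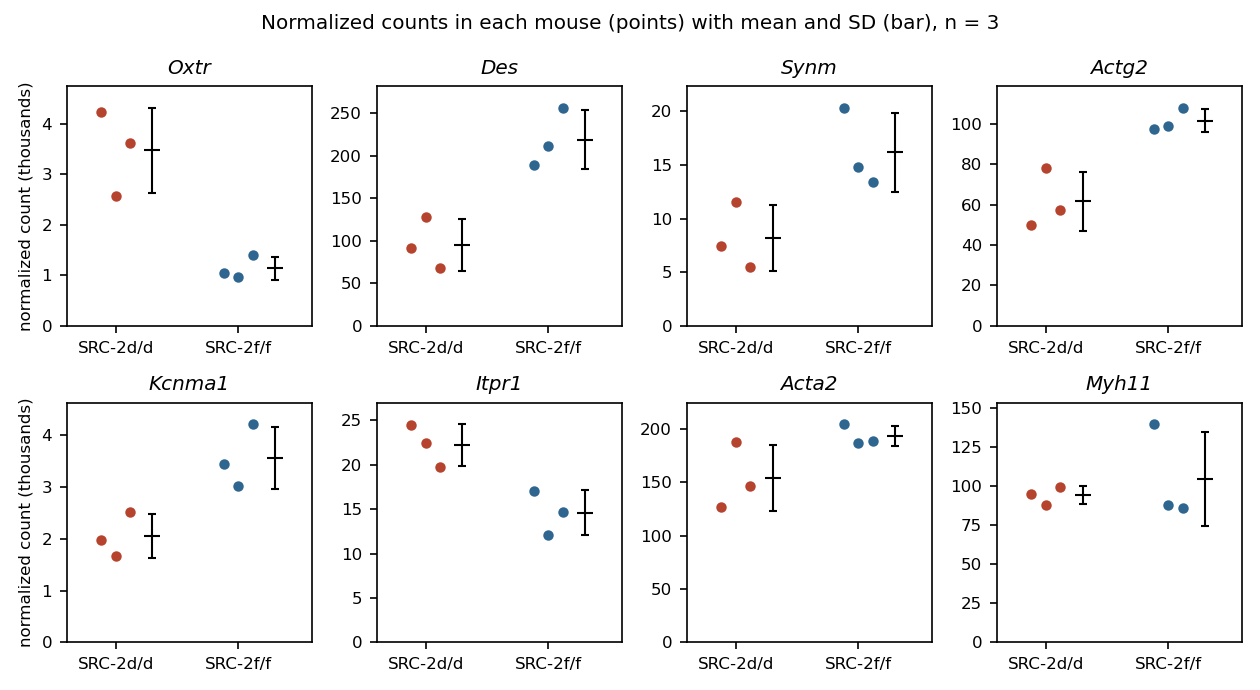
Normalized counts (axis in units of 1000) of 8 of the genes in each mouse, SRC-2d/d to the left in red and SRC-2f/f to the right in blue, with the mean and SD of 3 mice as black bars. The groups separate for Oxtr, Des, Synm, Actg2, Kcnma1 and Itpr1, and overlap for Acta2 and Myh11.

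Genes of myosin phosphorylation had 0 of 3 called. Mylk, myosin light chain kinase, had 84573 ± 13325 normalized counts in mutants and 79795 ± 12525 in controls, with a log2 difference of 0.08 (95% interval -0.41 to 0.58). Ppp1r12b, a targeting subunit of myosin phosphatase, had 24768 ± 3860 in mutants and 25144 ± 4716 in controls. Ppp1r14a, which encodes CPI-17, the inhibitor of that phosphatase, had 3632, 3552 and 3013 in mutants 1 to 3, against 5093, 5394 and 4650.1 in controls 1 to 3. Its groups did not overlap, and its log2 difference of -0.57 was not called (limma adjusted p = 0.108).

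The transcription factors of the programme did not pass the test either. Myocd, myocardin, had 5298, 6183 and 4353 normalized counts in mutants 1 to 3, against 5417, 4647 and 4386 in controls 1 to 3, with full overlap. Srf had 13633 ± 1927 in mutants and 17324 ± 3122 in controls, and a log2 difference of -0.34 (95% interval -0.81 to 0.13). Its highest mutant, SRC-2d/d 2, exceeded its lowest control, SRC-2f/f 1.

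The calcium store had 0 of 5 genes called and was the only group of the 7 with a median above 0 (0.53). That median is the value of Pln alone, which is uncertain as said above (95% interval -0.36 to 1.42). Of the 5 log2 differences 3 were above 0 and 2 below. Itpr1, the IP3-gated release channel downstream of Gq receptors such as that for oxytocin, had 24435, 22459 and 19792 in mutants 1 to 3, against 17076, 12064 and 14694 in controls 1 to 3. All 3 mutants exceeded all 3 controls, at 152% of the control mean, with a log2 difference of 0.61 and a limma adjusted p of 0.0921, under the threshold in 1 of 20 alternatives. Ryr2, the ryanodine-gated release channel, had 1398, 1210 and 470 in mutants and 749, 571 and 488 in controls. Mutant 3 lay below every control there, and the log2 difference of 0.64 was 1.13 and called without that mouse.

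Atp2a2, the pump that refills the store, had 57612 ± 4919 normalized counts in mutants and 60598 ± 14120 in controls. Pln, phospholamban, which brakes that pump, had 208 ± 23.2 in mutants and 153 ± 70.2 in controls, with one control at 232 and the others at 127 and 98.8. Casq2, the calcium-binding calsequestrin of the store, had 286, 621 and 569 in mutants 1 to 3, against 917, 666 and 619 in controls 1 to 3. Its intervals, like those of Pln and Ryr2, are among the widest of the set: the 95% half-widths of the 31 uncalled genes ran from 0.44 to 0.89 on the log2 scale, with a median of 0.49. For 10 of the 31 (Actg2, Cnn1, Cald1, Csrp1, Ppp1r14a, Kcnma1, Pln, Casq2, Itpr1 and Ryr2) the interval reached past 1 in size, so that a 2-fold difference lies within it.

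Individual mice shaped these values. SRC-2d/d 2 had the highest value of the 3 mutants in 24 of the 34 genes, and SRC-2f/f 1 the highest of the 3 controls in 19. Relative to the control mean the 34 genes had a median log2 value of -0.37, -0.16 and -0.41 in mutants 1 to 3, against 0.12, -0.07 and -0.03 in controls 1 to 3. Of the 34 genes, 22, 14 and 24 lay below the control range in mutants 1 to 3, and 3, 7 and 3 above it. Together the 34 genes took 0.893%, 1.09% and 0.780% of all normalized counts in mutants 1 to 3, against 1.43%, 1.18% and 1.13% in controls 1 to 3. The coefficient of variation between mice had a median of 15.7% in mutants and 14.2% in controls. It ran from 6.21% (Myh11) to 47.8% (Ryr2) in mutants and from 0.828% (Tpm1) to 46.0% (Pln) in controls.

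Lists of related genes show what surrounded the contraction set, and their counts stand beside 5.34% of all tested genes called higher and 4.08% called lower (8.33% and 6.79% where the mean reached 100). Among 24 other genes listed for smooth muscle, not all of them restricted to it, 1 fell (Hspb8, a small heat-shock protein) and 0 rose, at a median of -0.17. Of 15 nonmuscle relatives of the contractile proteins 2 rose, among them Actn1, and 0 fell, at a median of -0.01. Of 27 genes of dense plaques and costameres, by which filaments grip the membrane, 4 fell, among them Itga5, Itga7 and Itga8, and 0 rose, at a median of -0.32. Among the SRF and MRTF cofactors and related factors 19 of 20 were tested, 1 (Klf4) rose and 3 (Hic1, Csrp2 and Prkd1) fell. Klf4, a repressor of smooth muscle genes in cultured vascular muscle and also an epithelial gene, had 39795, 20359.6 and 43532 in mutants 1 to 3, against 7586, 6167 and 6193 in controls 1 to 3 (log2 difference 2.31, SE 0.27, limma adjusted p = 0.000103).

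Receptors and channels held calls in both directions. Of 31 ligands and receptors of contraction and relaxation 8 fell (25.8%, against 4.08% of all tested genes) and 2 rose (6.45%, against 5.34%), at a median of -0.52. Ednrb, an endothelin receptor gene, fell to 30.9% of the control mean (log2 difference -1.72) and Ptgir, the prostacyclin receptor gene, to 30.1% (-1.76). Rxfp1, the receptor of the uterine relaxant relaxin, rose 3.06-fold, with 17303, 14253 and 11775 in mutants 1 to 3, against 7295, 3953 and 2924 in controls 1 to 3. Ednra and Adra1a fell as well, and the endothelin ligand gene Edn1 rose. Of 44 other channels and calcium-handling genes 6 rose (13.6%) and 7 fell (15.9%). Gja1, connexin 43, which couples myometrial cells and is also a gene of decidualizing stroma, fell to 25.2% of the control mean (-1.97, limma adjusted p = 0.00174), and Kcnk3 and Kcnmb2 fell too. Kcnmb2, however, had a mean under 50 over the 6 libraries. The calls of Kcnk3 and Kcnmb2 were each lost without SRC-2f/f 2 or SRC-2f/f 3. Kcnq1, Itpr3 and Cacna1d rose, and Itpr3, like Itpr1 an IP3-gated channel, did so 2.05-fold. Of 29 contraction signalling genes 4 fell (Rgs4, Rgs2, Plcb1 and Arhgef25) and 1 rose (Prkg1). Rgs4, which shortens Gq signals, had 287, 351 and 354 in mutants 1 to 3, against 776, 1527 and 2436 in controls 1 to 3.

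Of the 28 genes taken from these lists by adjusted p, 6 (Rgs4, Ednrb, Rxfp1, Ptgir, Gja1 and Klf4) kept their call without each library in turn and 22 lost it without at least 1. Prkg1, Arhgef25, Prkd1, Csrp2 and Itga7 lost it without 5 of the 6 libraries. The 8 lower receptor genes numbered 4 without SRC-2d/d 1, 11 without SRC-2d/d 2, 5 without SRC-2d/d 3, 5 without SRC-2f/f 1, 4 without SRC-2f/f 2 and 2 without SRC-2f/f 3. The other lists also lost calls with single libraries: leaving out SRC-2f/f 3 left 0 lower genes of dense plaques, 0 among the SRF and related factors and 1 each in signalling and in other channels. Without SRC-2d/d 2 the lower genes were 6 of dense plaques, 4 among the SRF and related factors, 6 in signalling and 7 in other channels. The background moved too: over all tested genes 2.29%, 7.84% and 2.13% were called lower without SRC-2d/d 1 to 3. Without SRC-2f/f 1 to 3 the shares were 2.55%, 1.26% and 0.879%. With eBayes without trend, Klf4 alone of the 28 genes kept its call. That setting called 0 genes higher and 0 lower in the receptor, signalling, other channel and dense plaque lists. Over all tested genes it called 1.89% higher and 0.871% lower.

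**Figure D4:**
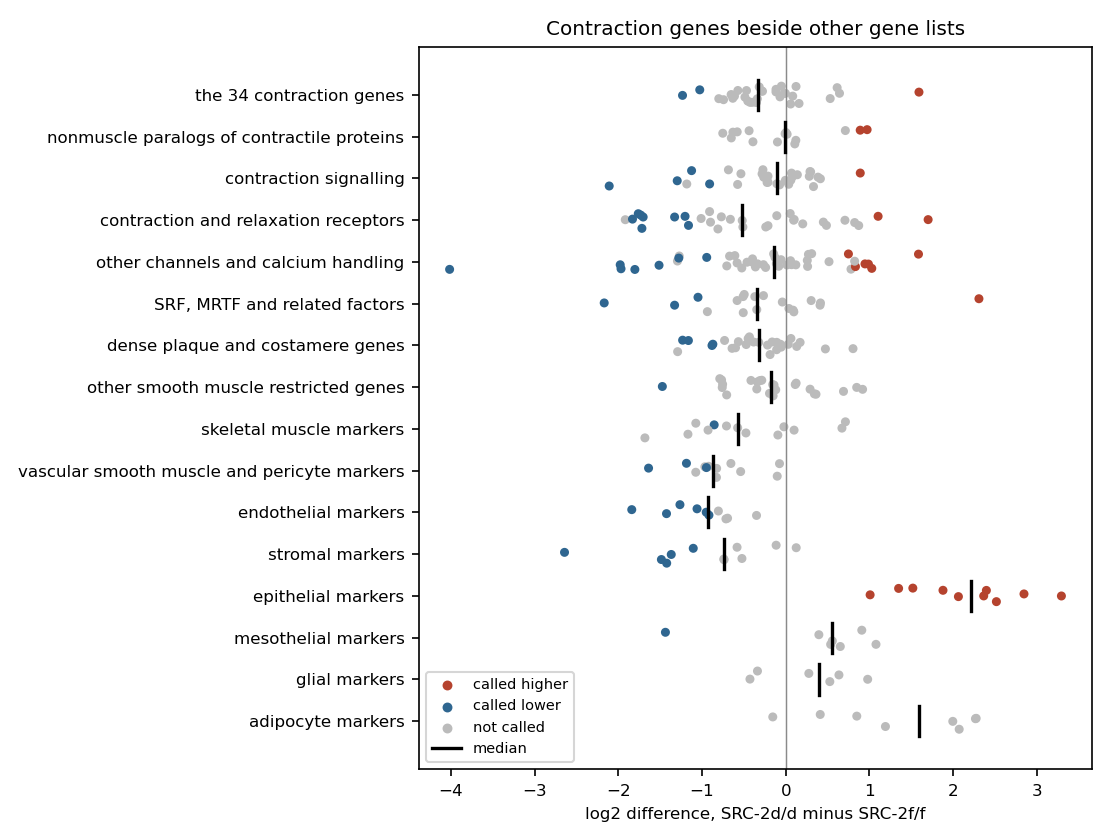
Log2 difference, SRC-2d/d minus SRC-2f/f, of each tested gene (points) of the 34 contraction genes, of 7 related lists and of 8 lists of cell type markers, with the median of each list as a black bar and called genes in red (higher) or blue (lower). The contraction genes have a median of -0.33, against -0.93 for endothelial and 2.21 for epithelial markers.

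Markers of vessels were lower as well. Of 12 markers of vascular smooth muscle and pericytes 3 (Rgs5, Heyl and Mcam) were called lower and 0 higher, at a median of -0.87, with summed normalized counts of 45609 to 79260.1 in mutants and 94523 to 127316 in controls. Of 10 endothelial markers 6 (Pecam1, Cdh5, Tie1, Kdr, Emcn and Egfl7) were called lower, at a median of -0.93, with sums of 53416 to 103900.1 in mutants and 129078 to 196855 in controls. Acta2, Tagln, Cnn1 and Myh11 are also genes of vascular muscle, and the part of the vessels in the differences of the 34 genes was not tested. Skeletal muscle markers had 1 of 13 called, Acta1, which was lower (log2 difference -0.86). That count was 2 without SRC-2d/d 2 and 0 without each other library. It was also 0 with a pseudocount of 0.1 or 0.5, without the low-value filter, with eBayes without trend and with edgeR. Of 8 adipocyte markers 0 were called, but 7 had log2 differences above 0, at a median of 1.59, with sums that varied widely within each genotype, at 2561 to 14450.1 in mutants and 1032 to 13690 in controls. Their part in the differences of the 34 genes was not tested. Of 6 glial markers 0 were called, at a median of 0.40. Mesothelial markers had 1 of 7, Wt1, called lower, but the other 6 had log2 differences above 0, and the median was 0.56. Without single libraries the endothelial count ran from 0 (SRC-2f/f 3) to 9 (SRC-2d/d 2), the vascular muscle count from 0 to 9 and the stromal count from 1 to 7, for the same libraries, while the epithelial count of higher genes was 9 or 10. Over all tested genes 0.879% were called lower and 2.83% higher without SRC-2f/f 3, against 7.84% and 7.24% without SRC-2d/d 2. With eBayes without trend 0 endothelial, 0 vascular muscle and 0 stromal markers were called lower, and 7 epithelial markers higher. Over all tested genes that setting called 0.871% lower and 1.89% higher.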

How the data were processed

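Uterine total RNA of 3 SRC-2d/d and 3 SRC-2f/f mice was made into stranded mRNA libraries, per the labels. The tools named per the submitters' processing notes are HISAT2, HTSeq and DESeq, without versions. The genome build, annotation, strand setting and multi-mapping rule are not stated. The deposited table is titled FPKM, but 100% of its values were whole multiples of 1 step per library (tolerance 1e-06), so the deposited signal is gene reads divided by a size factor, here called normalized counts.

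Genotype was fitted as the only term in limma 3.58.1 (R 4.3.3, trended eBayes), taking log2 after a pseudocount of 1, over 36154 genes whose mean reached 0.5. Differences are mutant minus control and understate changes of low genes. A gene was called at a Benjamini-Hochberg adjusted p below 0.05. In 20 alternatives the pseudocount, low-value filter, scaling, variance estimate or array weights were changed, mice were blocked by number, edgeR 4.0.16 or DESeq2 1.42.0 was run on recovered reads, or 1 library was left out. The fit was tested on simulated data. Exon lengths and overlaps are from GENCODE M21, promoters from RefSeq (GRCm38.p6), matched by symbol.

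The members and gene lists were chosen with earlier results of these data known. All 34 members are named, and from each related list up to 6 called genes by adjusted p, some of which are not reported here; ratios between genes and the promoters shown were chosen after values were seen.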

Additional observations from a re-analysis of the deposited data

How the results depend on the processing

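The direction of the difference was the same in all 20 alternatives for 27 of the 34 genes, among them Oxtr, Des and Synm. The calls of Des and Synm held in 16 and 14 of the alternatives. With eBayes without trend 0 of the 34 were called higher and 0 lower (683 and 315 of all genes). With array weights 2 were called higher and 5 lower (2500 lower over all genes). The lower ones were 4 with TMM scaling, 5 with quantile normalization, 6 with equal library totals and 4 with robust eBayes. The cause was not tested. Without 1 library they were 0 to 5, the higher ones 1 to 2, the calls over all genes 1013 to 2598 higher and 315 to 2813 lower, and the median of the 34 was -0.45 to -0.25.

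A fit with the replicate number as a block called 1 of the 34 higher and 4 lower, and 2104 and 1708 of all genes. Same-numbered mice deviated together with correlations of 0.38, 0.01 and 0.03 for numbers 1 to 3, and mutant 2 correlated best with control 3 (0.34). Mutant 1 and control 3 were at -0.41, and mutant 2 and control 1 at -0.34. Deviations from a mean of 3 mice sum to 0, so these correlations depend on each other and cannot settle whether mice were paired. In the main fit the numbers were taken as names only.

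Reversed signs concerned genes near 0. With array weights Myl9 was at 0.0359, Lmod1 at 0.0539, Ppp1r12b at 0.0890 and Atp2a2 at 0.0566, and Myl9 was at 0.00221 with DESeq2. Without 1 library the ranges were -0.238 to 0.110 for Myh11, -0.105 to 0.0613 for Myl9, -0.173 to 0.0460 for Lmod1, -0.0329 to 0.209 for Mylk, -0.121 to 0.131 for Ppp1r12b, -0.0403 to 0.151 for Kcnmb1 and -0.163 to 0.131 for Atp2a2. The intervals of single genes are not adjusted for the number of genes, so a difference can exceed its half-width and miss the call, as for Kcnma1, Actg2 and Csrp1.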
